A study of Mus musculus with 4 samples.

Results

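The RNA level of 10 genes that write, copy, protect and erase DNA methylation was compared between wild-type (WT) mouse embryonic stem cells (mESCs) and Snf2l knockout mESCs. The genes were named by their role, with earlier results of these data known: Dnmt1, Uhrf1, Dnmt3a, Dnmt3b, Dnmt3l, Tet1, Tet2, Tet3, Zfp57 and Trim28. They are 10 of the 24594 genes in the count table, and 10 of 10 were expressed highly enough to be tested, together with 13840 genes in all. The 4 poly(A) RNA libraries came from mESCs of 129S6/SvEvTac background, 2 from WT and 2 from Snf2l knockout cells. Neither group was treated, and the libraries shared a batch. Snf2l is the gene Smarca1 and codes for an ISWI chromatin remodeling ATPase. Each deleted line of the study is 1 clone obtained with Cas9 from the parental line, so the effects of genotype and of clone cannot be told apart. The study calls its replicates biological and independent, and the sources used here do not say whether the 2 libraries of a genotype came from separate cultures of the clone, so p-values measure the spread between these libraries.

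In mammals a methyl group is added to cytosine mainly at CpG dinucleotides. DNMT3A and DNMT3B place it on unmethylated DNA with the help of DNMT3L, a relative that lacks catalytic activity, and DNMT1 copies it onto the new strand after replication, where UHRF1 finds the hemimethylated CpGs and recruits it. TET enzymes oxidize the methyl group, which leads to its removal. At imprinted genes, where the parental alleles differ in expression, the zinc finger protein ZFP57 binds a methylated hexamer and brings in TRIM28 (KAP1), the scaffold of a silencing complex that keeps the mark through the wave of demethylation in the early embryo. mESCs grown in serum, as here, carry highly methylated genomes and express all of these classes of protein. DNA methylation itself was not measured in these libraries, which give RNA levels only.

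The libraries held between 13771642 and 15608803 counts, and the 10 genes together took between 0.620% and 0.631% of the counts in WT and between 0.681% and 0.688% in the knockout. The targeted gene matched its labels: Smarca1 had 620 and 626 counts in WT, against 37 and 31 in the knockout (log2 fold change -4.30, SE 0.159, edgeR adjusted p = 2.65e-10). mESC markers were present at a summed level of 4296 to 4583 CPM (counts scaled to a common library size), so the labelled cell type was matched by its markers. Of 13840 genes, 4.0% were called higher and 5.21% lower in the knockout at an adjusted p under 0.05, and 0.990% passed the threshold of the study for a differentially expressed gene (DEG), an adjusted p under 0.01 with a change over 2-fold. Of all genes called, 43.4% were higher in the knockout, and 64.5% when chromosomes 8 and Y were left out. The 754 tested genes of chromosome 8 had a median log2 fold change of -0.51. None of the 10 genes of the methylation machinery lies on these chromosomes. The median log2 fold change of all tested genes was 0.0002. A rise or fall is that of the knockout relative to WT. In such bulk libraries, fewer cells of a type and less RNA per cell cannot be told apart.

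The promoters of the genes that the results turn on are shown first, because their CpG content differs. Each is a window of 300 bases from RefSeq on GRCm38.p6 (the assembly of mm10), from 250 bases before to 50 bases after a transcription start, on the strand of the gene, with every CpG in capitals. Dnmt3a has starts at the upstream end of the gene and an internal start, and is known for a shorter isoform that mESCs make from inside the gene. Dnmt3l and Zfp57 are shown at their most upstream start.
Dnmt3a upstream, chr12:3806730-3807029, plus strand: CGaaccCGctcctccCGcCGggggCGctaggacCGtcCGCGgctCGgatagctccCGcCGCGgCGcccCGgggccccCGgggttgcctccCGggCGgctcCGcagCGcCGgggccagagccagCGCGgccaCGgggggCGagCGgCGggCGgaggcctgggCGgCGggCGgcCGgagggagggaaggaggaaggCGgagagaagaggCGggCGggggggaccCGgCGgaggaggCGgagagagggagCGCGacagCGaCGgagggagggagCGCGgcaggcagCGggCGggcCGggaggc
Dnmt3a internal, chr12:3891494-3891793, plus strand: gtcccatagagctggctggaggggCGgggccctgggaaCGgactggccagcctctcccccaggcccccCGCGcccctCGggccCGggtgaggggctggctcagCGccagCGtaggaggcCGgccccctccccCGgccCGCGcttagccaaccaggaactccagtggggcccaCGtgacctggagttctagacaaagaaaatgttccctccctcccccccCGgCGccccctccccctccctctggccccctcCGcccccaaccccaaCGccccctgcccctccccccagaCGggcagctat
Dnmt3l, chr10:78042037-78042336, plus strand: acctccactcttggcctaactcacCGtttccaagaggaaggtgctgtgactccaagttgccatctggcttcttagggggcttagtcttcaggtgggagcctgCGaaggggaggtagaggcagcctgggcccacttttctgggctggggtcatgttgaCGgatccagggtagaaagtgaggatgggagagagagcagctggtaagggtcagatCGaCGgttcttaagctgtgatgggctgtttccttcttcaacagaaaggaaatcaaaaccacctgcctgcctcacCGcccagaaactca
Zfp57, chr17:37000913-37001212, plus strand: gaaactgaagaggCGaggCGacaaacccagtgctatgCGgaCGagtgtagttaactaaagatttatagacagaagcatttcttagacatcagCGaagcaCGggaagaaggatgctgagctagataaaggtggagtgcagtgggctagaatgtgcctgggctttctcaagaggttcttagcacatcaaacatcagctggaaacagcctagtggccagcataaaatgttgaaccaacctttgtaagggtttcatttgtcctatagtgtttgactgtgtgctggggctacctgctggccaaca

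These windows held 46 CpGs (Dnmt3a upstream), 18 CpGs (Dnmt3a internal), 6 CpGs (Dnmt3l) and 6 CpGs (Zfp57), against a median of 7 CpGs over 32851 windows of 27025 genes. Every one of the 10 genes had at least 1 window, 19 in all, with a median of 17 CpGs. The most CpG-rich was that of Tet2 with 57 CpGs, and the CpG-poorest was that of the most upstream start of Dnmt1 (chr9:20959839-20960138), with 2 CpGs. The windows of Dnmt3l and Zfp57 held between 3 and 9 CpGs, around that median. The count table holds 1 value per gene, so the starts in use were not resolved.

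**Figure D1:**
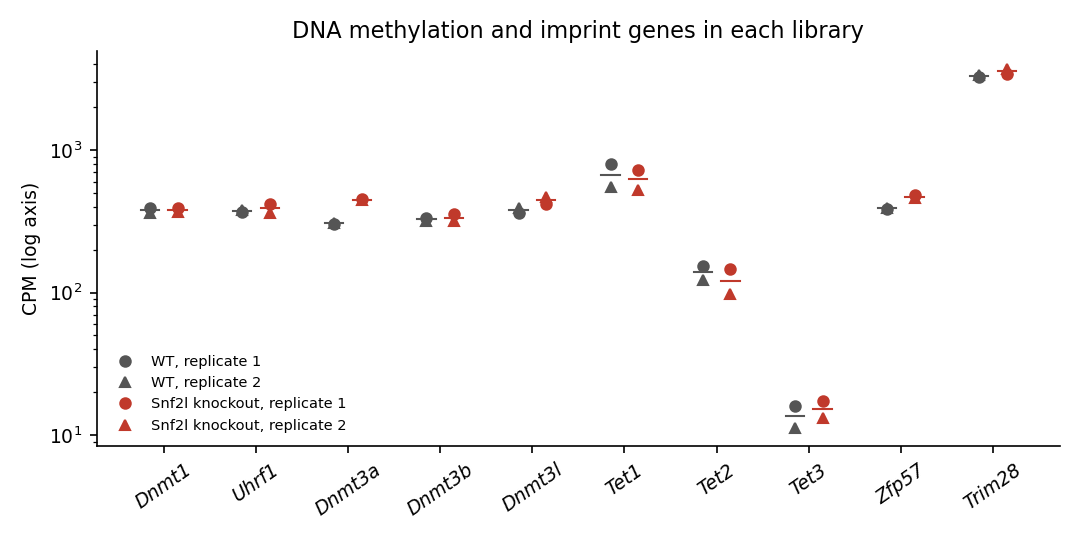
Level of each gene in each of the 4 libraries, in CPM on a log axis; gray marks are WT, red marks are Snf2l knockout, circles are replicate 1, triangles are replicate 2, and the short line is the mean of the 2 libraries. Both knockout marks lie above both WT marks for Dnmt3a, Dnmt3l, Zfp57 and Trim28, as in 25.2% of all tested genes. The replicates of Tet1, Tet2 and Tet3 are spread more widely than the genotypes.

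Among the de novo enzymes, Dnmt3a rose and Dnmt3b was close to its WT level. Dnmt3a (Entrez gene 13435, chr12:3801559-3914443) had 4149 and 4719 counts in WT, against 7092 and 6825 in the knockout. This is 305 and 308 CPM in WT and 452 and 444 CPM in the knockout. The knockout libraries lay far above both WT libraries, and replicates lay within a few percent of each other. The mean went from 306 ± 2.19 CPM to 448 ± 5.59 CPM (SD, n = 2 each), a 1.46-fold rise (95% interval 1.3 to 1.65). On the log2 scale the rise was 0.55 (SE 0.082, edgeR adjusted p = 6.81e-04). A change of at least this size in either direction was seen in 10.6% of all tested genes. The rise stayed under 2-fold, so Dnmt3a was not a DEG. The call was kept in 15 of 15 alternative analyses, with log2 fold changes between 0.54 and 0.62 and adjusted p-values up to 0.00697.

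Dnmt3b (Entrez gene 13436, chr2:153649411-153687730), the paralog of Dnmt3a with a CpG-rich promoter of 30 CpGs, had 336 and 316 CPM in WT and 354 and 316 CPM in the knockout. The genotypes overlapped. Its fold was 1.03 (95% interval 0.90 to 1.17, edgeR adjusted p = 0.853), so a change as large as the 1.46-fold of Dnmt3a lay outside the interval. Per kb of gene length, the ratio of Dnmt3a to Dnmt3b was 0.278 and 0.299 in the WT libraries and 0.391 and 0.431 in the knockout libraries, which did not overlap. Ratios were not tested, and 25.2% of all tested single genes lay apart in this direction. The size of the ratio depends on the length assigned to each gene (16642 bp for Dnmt3a, 5106 bp for Dnmt3b), which is the same in both genotypes.

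Dnmt3l (Entrez gene 54427, chr10:78042287-78063622), the cofactor of both enzymes, had 363 and 394 CPM in WT and 421 and 466 CPM in the knockout. Both knockout libraries were above both WT libraries, which was so for 25.2% of all tested genes. The mean went from 378 ± 21.6 CPM to 443 ± 32.4 CPM, a fold of 1.17 (95% interval 1.03 to 1.34), with an unadjusted p of 0.0209 that missed the threshold after adjustment (edgeR adjusted p = 0.135). It passed in 3 of 15 alternatives, namely with the replicate number as a block (4.68e-04), with a trend of gene length between replicates removed (0.0489) and without knockout replicate 1 (0.0231). Per kb, Dnmt3l stood at 1.54 ± 0.137 times the sum of Dnmt3a and Dnmt3b in WT and at 1.61 ± 0.215 times in the knockout (SD, n = 2 each), with overlapping libraries. Dnmt3l overlaps the antisense gene Aire, Dnmt3a overlaps the antisense Dnmt3aos, and Tet2 overlaps the antisense Gm42567. Whether counting used the strand was not stated, so reads shared by overlapping genes could not be assigned here. Aire had 50 and 57 counts in WT, against 93 and 82 in the knockout, and Dnmt3aos had 0 counts in every library.

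The genes of maintenance methylation overlapped between genotypes, with narrow intervals around a fold of 1.0. Dnmt1 (Entrez gene 13433, chr9:20907206-20959888) had 394 and 360 CPM in WT and 390 and 365 CPM in the knockout. Its fold was 1.0 (95% interval 0.881 to 1.14, edgeR adjusted p = 0.993). Uhrf1 (Entrez gene 18140, chr17:56303337-56323486) had 369 and 379 CPM in WT and 421 and 363 CPM in the knockout. Its fold was 1.05 (95% interval 0.917 to 1.20, edgeR adjusted p = 0.726). Per kb, Dnmt1 stood at 0.583 ± 0.0473 times Uhrf1 in WT and at 0.558 ± 0.0327 times in the knockout, and these ratios overlapped.

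The TET genes did not pass the test, and their replicates differed by more than their genotypes. Tet1 (Entrez gene 52463, chr10:62804570-62887469), the main TET gene of mESCs, had 795 and 552 CPM in WT and 722 and 526 CPM in the knockout. Tet2 (Entrez gene 214133, chr3:133463677-133545136) had 154 and 122 CPM in WT and 145 and 97.1 CPM in the knockout. Tet3 (Entrez gene 194388, chr6:83362373-83457208), known mainly from oocytes and neurons, had 16.1 and 11.2 CPM in WT and 17.2 and 13.1 CPM in the knockout. In each gene replicate 1 was above replicate 2 in both genotypes, by 1.26 to 1.44 times in WT and by 1.31 to 1.5 times in the knockout. The folds between genotypes were 0.927 for Tet1 (95% interval 0.741 to 1.16), 0.877 for Tet2 (95% interval 0.700 to 1.10) and 1.12 for Tet3 (95% interval 0.862 to 1.45), with edgeR adjusted p-values of 0.741, 0.522 and 0.661. The direction depended on single libraries: without knockout replicate 1, Tet1 was at -0.35 (adjusted p = 0.00381) and Tet2 at -0.51 (adjusted p = 3.33e-04) on the log2 scale, and without knockout replicate 2 they were at 0.10 and 0.07.

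**Figure D2:**
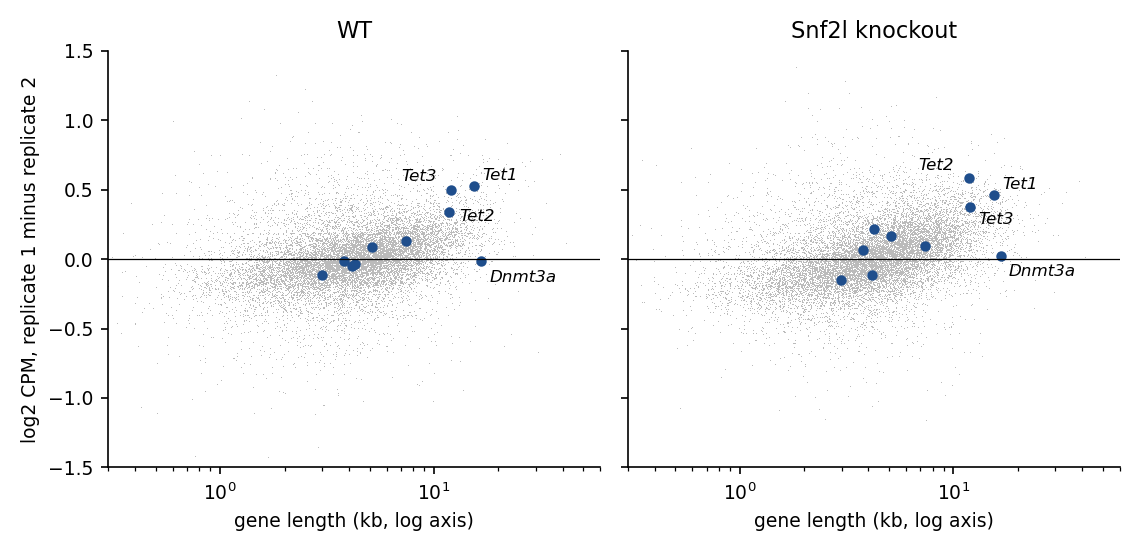
Difference between replicates 1 and 2 in log2 CPM (vertical axis) against gene length in kb on a log axis, for all 13840 tested genes (gray) and the 10 genes (blue), in WT (left) and Snf2l knockout (right). Long genes sit above 0 in both genotypes, Tet1, Tet2 and Tet3 with them, while Dnmt3a, the longest of the 10, sits at 0.

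The difference between replicates went with gene length across all tested genes, and the TET genes were split in the direction of long genes. Over 13840 genes, those under 2 kb had a median log2 difference between replicates 1 and 2 of -0.12 in WT and -0.15 in the knockout, and the 1066 genes over 10 kb had 0.17 and 0.22. Across genes, which are not independent replicates, Spearman's rho of this difference with length was 0.376 in WT and 0.441 in the knockout. Tet1 (15457 bp), Tet2 (11775 bp) and Tet3 (11999 bp) lay above the median of their class in both genotypes. Dnmt3a (16642 bp) had replicate ratios of 0.990 in WT and 1.02 in the knockout. The median difference between genotypes of genes over 10 kb was -0.06. With the trend removed, an alternative added after seeing the data, Dnmt3a was at 0.62 (adjusted p = 1.97e-04) and the TET genes were at -0.04, -0.13 and 0.22 on the log2 scale, with adjusted p-values of 0.847, 0.443 and 0.322 for Tet1, Tet2 and Tet3. Dnmt3l was at 0.21 (adjusted p = 0.0489) in that fit. The part of the trend in these differences was not tested further.

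Of the imprint protection genes, Zfp57 passed the test and Trim28 did not. Zfp57 (Entrez gene 22715, chr17:37001163-37010729) had 387 and 391 CPM in WT and 482 and 461 CPM in the knockout. Its mean went from 389 ± 2.73 CPM to 471 ± 15.0 CPM (SD, n = 2 each), a 1.21-fold rise (95% interval 1.07 to 1.37, log2 fold change 0.28, SE 0.082, edgeR adjusted p = 0.0484). The knockout libraries lay above the WT libraries by more than the replicates differed, but the adjusted p-value was at the edge of the threshold. It was past 0.05 in 6 of 15 alternatives, namely with a filter of at least 1 count (0.0656), in DESeq2 (0.0760), with chromosomes 8 and Y left out (0.0910), and in the fits without WT replicate 1 (0.390), WT replicate 2 (0.30) or knockout replicate 1 (0.0823).

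Trim28 (Entrez gene 21849, chr7:13024152-13031032) was rank 3 of all tested genes by mean CPM, which does not correct for length. It had 3261 and 3377 CPM in WT and 3444 and 3726 CPM in the knockout, without overlap. Its fold was 1.08 (95% interval 0.965 to 1.21, edgeR adjusted p = 0.435). Per kb, Zfp57 stood at 0.130 and 0.127 times Trim28 in the WT libraries and at 0.154 and 0.136 times in the knockout libraries, again without overlap. This ratio was not tested, and both knockout libraries lay above both WT libraries in 25.2% of all tested genes.

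**Figure D3:**
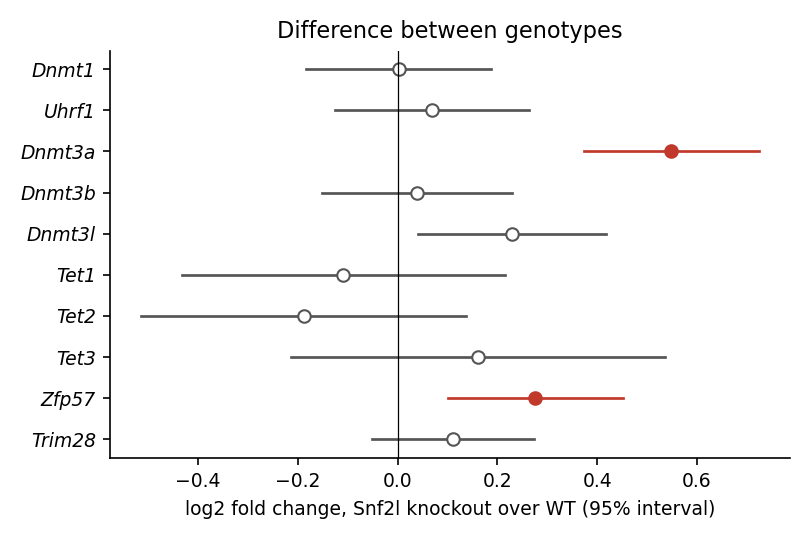
Log2 fold change of each gene, Snf2l knockout over WT, with its 95% interval from the edgeR fit over all 4 libraries; filled red points have an adjusted p under 0.05. Dnmt3a at 0.55 and Zfp57 at 0.28 are filled, and the intervals of the TET genes are the widest.

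Of the 10 genes, then, 2 were called higher and 0 lower in edgeR, where the background was 4.0% higher and 5.21% lower. At an unadjusted p under 0.05 in edgeR there were 3 (Dnmt3a, Zfp57 and Dnmt3l), where 3066 of all 13840 tested genes were so. DESeq2 called 1 (Dnmt3a), and 0 were DEGs by either tool. The median log2 fold change of the 10 was 0.09. Both knockout libraries were above both WT libraries in 4 of them (Dnmt3a, Dnmt3l, Zfp57 and Trim28), where 25.2% of all genes were so, and below in 0, where 25.3% were so.

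The order of the levels per kb of the deposited gene length was the same in both genotypes. In WT, Trim28 came first with 798 ± 19.6 CPM per kb, followed by Dnmt3l (127 ± 7.24), Zfp57 (103 ± 0.721), Uhrf1 (87.8 ± 1.63), Dnmt3b (63.9 ± 2.78), Dnmt1 (51.1 ± 3.20), Tet1 (43.5 ± 11.1), Dnmt3a (18.4 ± 0.131), Tet2 (11.7 ± 1.94) and Tet3 (1.14 ± 0.287) (SD, n = 2 each). Dnmt1 and Tet1 overlapped between libraries, and the other neighbours in this order did not. In the knockout no neighbours overlapped, and Dnmt3a stood at 26.9 ± 0.336 CPM per kb. Tet1 was at 3.68 ± 0.338 times Tet2 in WT and at 3.95 ± 0.242 times in the knockout, with overlap. It was at 38.3 ± 0.135 times Tet3 in WT and at 31.8 ± 1.09 times in the knockout, without overlap. These ratios were not tested, and neither Tet1 nor Tet3 was called. Among single genes, 25.2% of those tested lay apart as higher in the knockout and 25.3% as lower. With the length of 1 principal GENCODE transcript per gene (9685 bases for Dnmt3a) in place of the deposited length, the knockout level of Dnmt3a was 46.3 CPM per kb and overlapped that of Tet1 at 43.4, and Dnmt3b and Dnmt1 overlapped in WT.

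**Figure D4:**
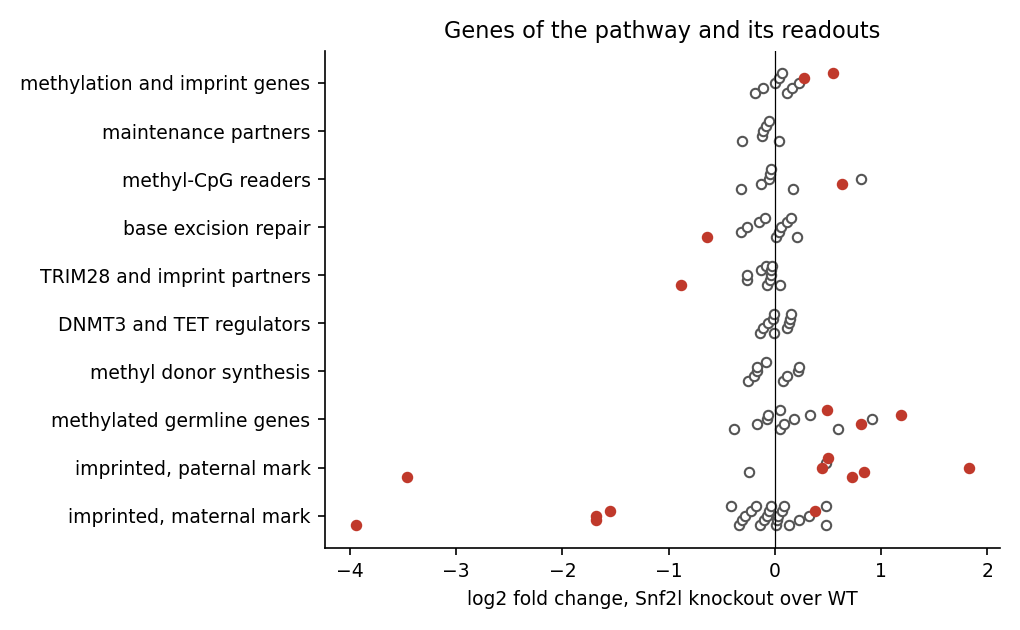
Log2 fold change, Snf2l knockout over WT, of every tested gene of the 10 genes and of 9 lists of genes around them; each point is a gene and filled red points have an adjusted p under 0.05. The lists of partners, readers, repair, regulators and donor synthesis hold at most 1 filled point each, and the germline and imprinted lists hold the widest values.

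The partners of these genes were compared next, as lists whose counts are read beside the background. In edgeR this was 4.0% of all tested genes called higher and 5.21% called lower. Of 6 partners of maintenance methylation at the replication fork, 0 were called in edgeR and 0 in DESeq2. In edgeR 1 had an unadjusted p under 0.05, where 3066 of all 13840 tested genes did. Hells, a remodeler that opens chromatin for DNMT1, was at -0.11 (adjusted p = 0.50), and Pcna, the sliding clamp, at -0.05 (adjusted p = 0.795). Of 12 replication genes, 1 fell, Mcm5, which lies on chromosome 8, and their summed level was between 6862 and 6986 CPM in all libraries. A further list held factors that guide DNMT3 or TET enzymes, and Trdmt1. Among its 10 tested genes, 0 were called in edgeR, 0 were called in DESeq2, and 0 had an unadjusted p under 0.05. Kdm1a, the demethylase LSD1, was at -0.01 (adjusted p = 0.983) and Dcaf1, a ubiquitin ligase subunit, at -0.14 (adjusted p = 0.428). Without knockout replicate 1, 1 gene of the maintenance list and 1 of the guiding factors were called lower, and without knockout replicate 2, 1 of the guiding factors was called higher. Mcm5 was not called without WT replicate 2.

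Of 8 genes of proteins that bind methylated CpGs or are related to them, Mbd2 rose and 7 were not called. Mbd2, which recruits the NuRD deacetylase complex to methylated DNA, had 127 and 143 counts in WT, against 242 and 208 in the knockout. This was 0.63 on the log2 scale (SE 0.142, edgeR adjusted p = 0.010), and it was called in 15 of 15 alternatives. Mbd3, a NuRD subunit of the same family, was at 0.18 (adjusted p = 0.268). Without knockout replicate 1, 1 reader was called lower beside Mbd2.

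Of 11 genes of the base excision repair that follows TET oxidation, Polb fell and 10 were not called. Polb, the gap-filling polymerase, had 606 and 776 counts in WT, against 476 and 477 in the knockout (log2 fold change -0.63, SE 0.108, edgeR adjusted p = 0.00157). Polb lies on chromosome 8, whose 754 tested genes had a median of -0.51, and what part of its fall goes with the chromosome was not tested. Parp1, which senses DNA breaks, was at -0.15 (adjusted p = 0.302). Without knockout replicate 1, 3 of the list were called lower, Parp1 among them (0.0459).

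Of 11 partners of TRIM28 and other imprint protection factors, Dppa3 fell and 10 were not called. Dppa3 (STELLA), which shields the maternal genome from TET oxidation and holds back UHRF1, had 239 and 317 counts in WT, against 145 and 177 in the knockout. This was -0.88 on the log2 scale (SE 0.148, edgeR adjusted p = 0.00143), and it was called in 15 of 15 alternatives. The list median was -0.07 beside 0.0002 for all genes, and Cbx1, a heterochromatin protein, was at -0.05 (adjusted p = 0.794). Without knockout replicate 1, 3 of the list were called lower.

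Genes that DNA methylation is known to silence or mark were taken as readouts at the RNA level. Of 16 germline genes with promoters methylated in somatic cells, 14 were tested, 3 rose and 0 fell in edgeR, where 4.0% of all tested genes were called higher and 5.21% lower, and DESeq2 called 0 lower. Mael, a piRNA pathway gene, had 150 and 181 counts in WT, against 391 and 416 in the knockout (log2 fold change 1.19, SE 0.126, edgeR adjusted p = 5.43e-05), and was the 1 DEG of the list. Slc25a31, a testis ADP/ATP carrier, was at 0.81 (adjusted p = 0.0148) and Tuba3a, a testis tubulin, at 0.49 (adjusted p = 0.0479), and both missed the threshold in DESeq2 (0.0913 and 0.232). Slc25a31 also missed it without knockout replicate 2 (0.0768), and Tuba3a in 6 of 15 alternatives, among them those without WT replicate 1 (0.219), WT replicate 2 (0.121) and knockout replicate 2 (0.178). The list had 1 call in DESeq2, that of Mael, and 1 without knockout replicate 2. Without knockout replicate 1, 3 were higher and 1 was lower. The other 11 did not pass, with Ddx4 and Dazl, the classic germ cell markers, at -0.06 and 0.09, and the list median was 0.14. The promoter of Mael, the germline gene with the largest difference, is given here with its CpGs in capitals, 24 in all.
Mael, chr1:166238695-166238994, minus strand: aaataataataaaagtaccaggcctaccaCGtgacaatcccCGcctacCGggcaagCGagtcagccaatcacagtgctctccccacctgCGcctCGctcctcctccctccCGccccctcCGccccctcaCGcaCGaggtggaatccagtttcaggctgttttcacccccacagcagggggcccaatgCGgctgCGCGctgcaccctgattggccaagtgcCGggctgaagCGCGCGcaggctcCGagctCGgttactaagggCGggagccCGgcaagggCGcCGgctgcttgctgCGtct

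Imprinted genes moved in both directions, and their counts are read beside the same 4.0% and 5.21%. In domains with a paternally methylated control region, 8 of 9 genes were tested, of which 5 rose, 1 fell and 2 were not called. H19 and Igf2 lie in 1 domain, and the remaining genes that rose lie in another. H19, a maternally expressed noncoding RNA, went from 992 and 1130 counts to 111 and 96 counts (log2 fold change -3.46, adjusted p = 1.88e-10), and its neighbour Igf2, a growth factor expressed from the other allele, from 151 and 182 counts to 693 and 578 counts (log2 fold change 1.83, adjusted p = 9.20e-07). In the Dlk1-Meg3 domain the noncoding RNAs Mirg, Meg3 and Rian rose together by 0.73, 0.50 and 0.45 on the log2 scale (adjusted p = 0.00245, 0.00448 and 0.00509 in edgeR). Other genes of this domain went the same way, though the annotated span of Rtl1 overlaps those of Meg3 and Rian. Strand use in counting was not stated, so reads shared by these genes could not be assigned. Rtl1 rose by 0.84 (edgeR adjusted p = 0.0317) from 29 and 36 counts to 57 and 68 counts. It was not called in DESeq2 or with chromosomes 8 and Y left out. In both of these fits the 4 genes called higher were Igf2, Mirg, Meg3 and Rian. Dlk1 was at 0.49 and was not called (edgeR adjusted p = 0.0970). Rian missed the threshold in 1 of 15 alternatives, without WT replicate 2 (0.0548), where 3 genes of the list were higher and 2 lower.

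In domains with a maternally methylated control region, 26 of 30 genes were tested, 1 symbol (Nespas) was not matched, and of those tested 1 rose, 4 fell and 21 were not called. Mest, a paternally expressed gene, had 2532 and 2704 counts in WT, against 173 and 192 in the knockout (log2 fold change -3.95, edgeR adjusted p = 2.57e-11). The neighbours Phlda2 (-1.68), Cdkn1c (-1.69) and Slc22a18 (-1.55) of 1 domain on chromosome 7 fell, with adjusted p-values of 1.13e-06, 1.60e-06 and 0.00570, while Peg10 on chromosome 6 rose by 0.38 (adjusted p = 0.0391). Slc22a18 missed the threshold in DESeq2 (0.0687), and Peg10 in 4 of 15 alternatives, among them those without WT replicate 2 (0.438) and knockout replicate 1 (0.0680). Over the fits that left out 1 library, the count of genes that rose ranged from 0 (without WT replicate 2 or knockout replicate 1) to 2 (without WT replicate 1), and that of genes that fell from 4 to 5. The counts of these imprinted lists are not independent of each other, because genes of a domain share a control region.

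The ZFP57 hexamer TGCCGC was searched in these windows on both strands. It was present in 11.6% of all 32851 windows, in 9 of 34 windows of the genes with maternal marks, in 3 of 12 windows of those with paternal marks, and in 4 of 19 windows of the methylation machinery itself. The hexamer holds a CpG, and the median CpGs per window of these lists were 15.5, 11.5 and 17, against 7 over all windows. The part of CpG content in these counts was not tested. Windows were found for 22 of 30 genes with maternal marks and 7 of 9 with paternal marks. Upstream windows of Dnmt3a overlap and share a match. The Mest window below, at a start that lies inside the gene, holds the hexamer at 2 positions, marked in capitals and read on the opposite strand. A match is a description and not a binding site.
Mest, chr6:30737800-30738099, plus strand: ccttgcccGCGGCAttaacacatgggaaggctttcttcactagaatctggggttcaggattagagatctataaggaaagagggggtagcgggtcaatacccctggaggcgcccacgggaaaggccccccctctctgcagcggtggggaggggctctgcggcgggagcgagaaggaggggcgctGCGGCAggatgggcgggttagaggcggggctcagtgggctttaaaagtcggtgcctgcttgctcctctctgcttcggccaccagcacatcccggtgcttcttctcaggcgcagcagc

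Cell-type markers that moved with genotype are given beside these values. Of 8 fibroblast markers, 5 were tested and 2 rose (Col1a1 and Col3a1), where 4.0% of all tested genes were called higher. The list summed to 12.5 to 15.0 CPM in WT and 27.5 to 27.9 CPM in the knockout. Lum and Fap were at 0 in every library, and Dcn had 0 to 2 counts. Of 8 primitive endoderm markers, 7 were tested and 4 rose (Gata6, Gata4, Dab2 and Pdgfra), where 4.0% of all tested genes were called higher, summing to 20.3 to 23.2 CPM in WT and 33.1 to 37.8 CPM in the knockout. Of 9 markers of 2-cell-like cells, 5 were tested and 3 fell, where 5.21% of all tested genes were called lower. This list summed to 16.0 to 16.8 CPM in WT and 7.27 to 7.48 CPM in the knockout. The primitive endoderm list had 1 call in DESeq2, and between 1 (without WT replicate 2) and 3 when 1 library was left out, with 2 without WT replicate 1. Without WT replicate 1, WT replicate 2 or knockout replicate 1, 2 of the 2-cell-like list fell, and 4 without knockout replicate 2. The fibroblast count was 2 or 3 in these fits, with 3 without WT replicate 1 or without knockout replicate 2. The part of these cells in the differences of Dnmt3a, Zfp57, Dppa3 and Mael was not tested.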

How the data were processed

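Poly(A) RNA-seq libraries of WT and Snf2l knockout mESCs (2 each) were analysed from the read counts per Entrez gene that the authors deposited. Per the labels and methods, reads were aligned to mm10 with QuasR and HISAT2 and counted over UCSC Known Genes. The labels name a stranded mRNA kit and the methods a TruSeq RNA v2 kit, and strand use in counting was not stated. Of 24594 genes, 24570 (99.86% of counts) were matched to RefSeq. In R 4.3.3, edgeR 4.0.16 was used with filterByExpr (minimum count 10), TMM scaling (an assumption, since no normalization is named) and the legacy quasi-likelihood test of genotype, two-sided, with Benjamini-Hochberg adjustment over 13840 genes. SE and 95% intervals came from the F statistic. CPM used the TMM-scaled counts of tested genes, and SD is over 2 libraries.

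The 10 genes, the lists around them and the naming rule were chosen with earlier results of these data known. Named were the 10 genes, Smarca1 and, per list, up to 5 genes with an adjusted p under 0.05, filled up to 2 by counts per kb. Genes of the marker lists, and Ddx4, Dazl, Aire, Dnmt3aos, Rtl1, Dlk1 and Trdmt1, were named after their values were seen. The libraries held 13771642 to 15608803 counts, and replicates differed by more than sampling noise (chi-square per degree of freedom 5.41 in WT and 7.78 in the knockout), at a biological coefficient of variation of 7.45%. Intervals cover the spread between these libraries, and PCR copies of a molecule are counted like separate ones. The main edgeR fit was tested on simulated data, and the alternative fits were not. Alternatives were other scalings, filters, DESeq2 1.42.0, a replicate block, chromosomes 8 and Y left out, each library left out and, added after seeing the data, removal of the length trend (lowess, span 0.3) and GENCODE transcript lengths.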

Additional observations from a re-analysis of the deposited data

How the results depend on the processing

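Of 150 alternative values of the log2 fold changes of the 10 genes, 127 kept their direction and their side of the threshold, 11 changed direction, 6 passed it newly and 6 no longer passed it. Dnmt3a was called in 15 of 15 alternatives. The number of the 10 genes called, 2, was 1 with a filter of at least 1 count, in DESeq2, with chromosomes 8 and Y left out and at an adjusted p under 0.01, and 4 with the replicate block, with a range of 1 to 4 in the fits that left out 1 library. None of these fits made any of the 10 a DEG, which holds for all 15 alternatives. Of all genes, 1274 were called, against 799 in DESeq2 (37.9% higher), 574 without chromosomes 8 and Y (64.5% higher), 1927 with the length trend removed (47.1% higher), and a range of 829 (without WT replicate 1) to 1932 (without knockout replicate 1). Leaving out chromosomes 8 and Y also left fewer genes to test, and the causes of these differences in number were not tested.

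Same-numbered libraries deviated together with a correlation of 0.246, but 2 pairs cannot establish a pairing. With the replicate block 3471 genes were called (46.4% higher) and 4 of the 10 genes, with Dnmt3l (adjusted p = 4.68e-04) and Tet2 (-0.21, adjusted p = 0.00738) added; this fit has few residual degrees of freedom. Under it 4 replication genes were higher and 1 was lower, of the methyl donor genes 2 were higher and 3 lower, and of the germline genes 5 were higher and 1 lower.

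The directions that reversed were those of 6 genes whose log2 fold changes did not pass the test. Dnmt1 was at -0.011 without chromosomes 8 and Y. Over the fits that left out 1 library, Dnmt1 lay between -0.062 and 0.068, Uhrf1 between -0.041 and 0.17, Dnmt3b between -0.044 and 0.12, Tet1 between -0.35 and 0.18, Tet2 between -0.51 and 0.074 and Tet3 between -0.085 and 0.44. A genotype left with 1 library is assumed there to vary like the other.

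Ratios in WT without gene length were 0.940 (Dnmt3a to Dnmt3b), 0.598 (Dnmt3l to both), 1.01 (Dnmt1 to Uhrf1), 4.83 (Tet1 to Tet2), 49.3 (Tet1 to Tet3) and 0.117 (Zfp57 to Trim28). With GENCODE lengths they were 0.419, 1.94, 0.675, 3.09, 20.4 and 0.147 in the same order.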

Other observations

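The enzymes that make and recycle S-adenosylmethionine, the methyl donor of all DNA methyltransferases, were measured as a list of 9 genes. In edgeR 0 were called, and in DESeq2 0. In edgeR 4 had an unadjusted p under 0.05, where 3066 of all 13840 tested genes did. With the replicate block 2 were higher and 3 lower, and with the length trend removed 1 was higher and 1 lower. Mat2a, the synthetase of this donor, had 7905 and 8897 counts in WT, against 8974 and 8107 in the knockout, a log2 fold change of -0.08 (edgeR adjusted p = 0.642). Mthfd1, a folate enzyme, was at 0.11 (edgeR adjusted p = 0.450). Both knockout libraries lay above both WT libraries in 3 of the 9 genes and below in 5, where the shares of all genes were 25.2% and 25.3%.

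Of 8 mESC markers, Klf4 was called higher (log2 fold change 0.34, edgeR adjusted p = 0.0359) and Zfp42, which lies on chromosome 8, lower (-0.60, edgeR adjusted p = 3.80e-04), while Nanog was at 0.00056 and Pou5f1 at 0.06. Over all tested genes, 4.0% were called higher and 5.21% lower in edgeR. In DESeq2 Zfp42 was the 1 call of the list. These genes were named after their values were seen.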
